A study of Mus musculus with 12 samples.

Results

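The liver transcriptome of septic mice given dichloroacetate (CLP+DCA) was compared with that of sham-operated mice, to ask what still differed from sham after the drug. The comparison used 8 of the 12 livers of the series, 4 from CLP+DCA mice and 4 from sham mice, taken as the deposited count columns of those groups with no choice on measured values. All mice were male C57BL/6J of 8 to 10 weeks, with no transgene or deletion. Cecal ligation and puncture (CLP) ties off the cecum and pierces it, here 2 times with a 22-gauge needle, so that gut bacteria leak into the abdomen and cause polymicrobial sepsis. The CLP+DCA mice received dichloroacetate at 25 mg/kg into the peritoneum 24 hours after CLP and were killed at 30 hours. Sham mice had the abdomen opened without ligation or puncture, and were killed at 30 hours as well. The other 4 mice had CLP without the drug, and their values are given beside the comparison where a result turns on them. Whether the sham and CLP mice received an injection of vehicle in place of the drug is not stated in the sources used here, so that the drug and its injection cannot be told apart, and neither can sepsis and drug within the CLP+DCA group.

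Sepsis turns the liver from metabolic work to the acute phase response, in which hepatocytes secrete plasma proteins such as serum amyloid A, haptoglobin and fibrinogen under the control of interleukin 6 acting through STAT3, of interleukin 1 and tumor necrosis factor acting through NF-kappaB, and of glucocorticoids. Dichloroacetate inhibits the pyruvate dehydrogenase kinases (PDK), which otherwise phosphorylate and switch off the pyruvate dehydrogenase complex, the enzyme that feeds pyruvate into the tricarboxylic acid cycle. The drug acts on the kinases, and transcript levels do not measure kinase activity. Which of the transcript levels described here follow from the drug was not tested.

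Reads counted over genes ranged from 24436513 to 44266819 per mouse, and 13190 of the 25611 genes in the table had enough counts to be tested. Levels are given as CPM, the read count of a gene scaled to a fixed library total, after TMM scaling, which corrects library size for the composition of each library. The libraries expressed the liver markers: the 18 hepatocyte markers summed to 118308 to 146319 CPM in sham and to 119334 to 145149 CPM in CLP+DCA. The similar sums hid members that moved apart in CLP+DCA replicate 3. There Trf had 44181 CPM against 17412 to 20019 CPM in sham, and Alb 15515 against 39666 to 58481 CPM. The mean log2 CPM of the markers relative to sham was -0.76 in that mouse, with sham mice at -0.10 to 0.08. Haemoglobin genes were listed at 0 in all 12 mice and tell nothing about blood content. In whole liver, fewer cells of a type and less RNA per cell cannot be told apart.

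The 4 CLP+DCA mice were not alike. Replicate 3 had 652 genes more than 2-fold above the sham mean and 879 more than 2-fold below it. The other 3 CLP+DCA mice had 36 to 110 genes above and 21 to 89 below, and the untreated CLP mice 153 to 542 above and 93 to 600 below. Acute phase genes, from a list of 32, took 33.9% of the counted reads in replicate 3, against 14.4% to 19.2% in the other 3 mice, 10.7% to 12.1% in sham and 19.9% to 34.4% in CLP. Its log2 CPM profile correlated at r = 0.981 with that of CLP replicate 2 and at 0.921 to 0.931 with the other CLP+DCA mice, across genes, which are not independent replicates. Replicate 3 was the most deeply sequenced CLP+DCA library, with 40251177 counted reads against 28885969 to 30505473. It was more than 2-fold above the mean of the other 3 mice for 1151 genes and more than 2-fold below for 1320. Each result is therefore given by mouse, and with and without replicate 3.

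**Figure D1:**
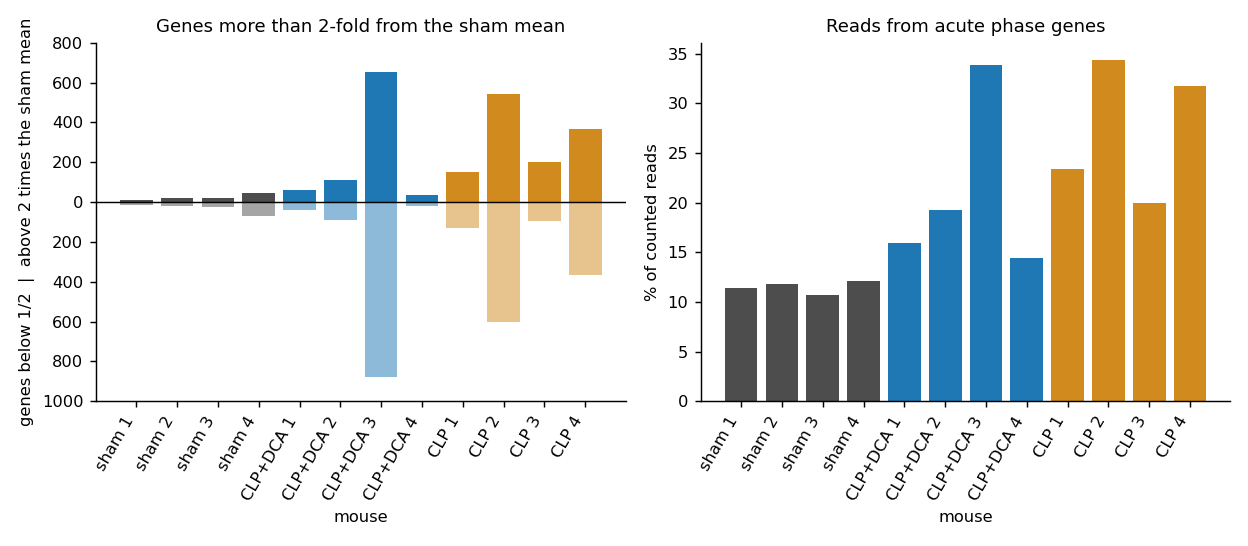
Left, the number of genes more than 2-fold above (solid, upward) and below (pale, downward) the sham mean in each mouse, on a linear axis. Right, the percentage of counted reads from the 32 acute phase genes. CLP+DCA replicate 3, with 652 genes above, 879 below and 33.9% of reads, lies with CLP replicates 2 and 4 and not with the other 3 CLP+DCA mice.

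A total of 5 genes passed the false discovery rate (FDR) of 0.05 in CLP+DCA against sham by edgeR's quasi-likelihood test on all 12 mice. They are 0.0379% of the 13190 genes tested, 4 higher and 1 lower. The 4 that rose were Saa3, Lrrc8a, AA986860 and Per1, and the gene that fell was Sc5d. All 5 also passed without replicate 3, where 11 of 13288 genes did (0.0828%). In 4 of the 5, all but Saa3, the level of replicate 3 lay within the range of the other 3 CLP+DCA mice. The number of genes that pass depends on the fit, from 0 with edgeR fitted to the 8 mice alone, where 1510 genes had an unadjusted p under 0.05, to 169 with DESeq2 on the same 8 mice and 496 with limma voom and sample weights. All 5 genes were among those 169 and among those 496.

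The 250 bases before the RefSeq start site of 4 of these genes are shown. These 4 genes were chosen because each passed the FDR and held a match to a motif of a pathway described here. The sequences are from GRCm38.p6 on the strand of the gene. Capitals mark matches on either strand to the E-box CACGTG read by clock and other factors, the cyclic AMP response element TGACGTCA, the C/EBP motif TTNNGCAA, the STAT motif TTCNNNGAA, the sterol response motif TCACNCCAC, or the NF-kappaB motif. They lie at chr7:46715677-46715926 (minus strand, Saa3), chr11:69098699-69098948 (plus strand, Per1, the more upstream of 2 start sites), chr9:42264301-42264550 (minus strand, Sc5d) and chr2:30237519-30237768 (plus strand, Lrrc8a).
Saa3: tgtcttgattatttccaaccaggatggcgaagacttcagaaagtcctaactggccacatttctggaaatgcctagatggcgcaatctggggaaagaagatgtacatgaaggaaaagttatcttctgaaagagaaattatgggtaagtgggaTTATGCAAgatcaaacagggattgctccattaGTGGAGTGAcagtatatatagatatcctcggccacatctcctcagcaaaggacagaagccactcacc
Per1: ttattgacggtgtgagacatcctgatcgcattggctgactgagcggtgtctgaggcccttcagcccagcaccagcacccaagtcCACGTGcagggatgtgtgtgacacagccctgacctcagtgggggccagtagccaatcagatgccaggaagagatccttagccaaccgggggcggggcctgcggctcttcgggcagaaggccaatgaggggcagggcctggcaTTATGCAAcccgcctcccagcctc
Sc5d: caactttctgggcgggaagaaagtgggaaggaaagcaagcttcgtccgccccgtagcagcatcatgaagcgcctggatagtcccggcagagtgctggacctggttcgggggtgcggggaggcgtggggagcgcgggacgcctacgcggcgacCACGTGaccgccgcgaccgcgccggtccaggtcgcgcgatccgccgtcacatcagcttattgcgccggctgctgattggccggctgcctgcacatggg
Lrrc8a: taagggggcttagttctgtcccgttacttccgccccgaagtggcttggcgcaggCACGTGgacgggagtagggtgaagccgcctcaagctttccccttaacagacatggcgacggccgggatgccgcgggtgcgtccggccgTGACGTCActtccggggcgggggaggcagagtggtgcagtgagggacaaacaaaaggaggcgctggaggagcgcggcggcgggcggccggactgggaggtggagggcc
The Saa3 window held a C/EBP match 99 bases before the start site and a sterol response match 67 bases before it. Per1 held an E-box match at 166 bases and a C/EBP match at 24 bases before the start. The window of the other Per1 start site, not shown, held a STAT match 210 bases before that site. Sc5d held an E-box match at 98 bases, and Lrrc8a an E-box match at 196 and a cyclic AMP match at 108. The window of AA986860 held none of the 6 motifs. Of 32851 promoter windows of this length, 6.02% held the E-box, 1.55% the cyclic AMP element, 9.56% the C/EBP motif, 7.02% the STAT motif, 1.05% the sterol motif and 7.25% the NF-kappaB motif. A match is a description of letters and was not tested as a binding site.

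Saa3, a serum amyloid A gene of the acute phase that is induced by inflammatory signals in hepatocytes and macrophages, lies on chromosome 7 from 46711998 to 46715676 (minus strand, mm10). Its level was 19.5, 14, 12.3 and 14.6 CPM in the sham mice. It was 2029, 1204, 6983 and 976 CPM in CLP+DCA replicates 1 to 4, so that the lowest septic value was far above every sham value and replicate 3 was highest. Saa3 rose by 7.53 ± 0.73 on the log2 scale (SE, n = 4 and 4, edgeR FDR = 0.00428) and by 6.54 without replicate 3 (FDR = 2.32e-05). The untreated CLP mice stood at 4300 to 9008 CPM, so that replicates 1, 2 and 4 lay below all of them and replicate 3 lay among them. CLP+DCA and CLP differed by -1.22 ± 0.55 for Saa3, which did not pass the FDR (0.497).

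Lrrc8a encodes an essential subunit of the volume-regulated anion channel and lies on chromosome 2 from 30237769 to 30263790. It stood at 28.2, 30.0, 27.7 and 29.6 CPM in sham and at 41.5, 40.9, 45.9 and 47.5 CPM in CLP+DCA. All 4 treated mice were close to each other and above sham, and Lrrc8a rose by 0.61 ± 0.08 (FDR = 0.0282). The CLP mice lay at 39.6 to 45.9 CPM, overlapping the treated mice. AA986860, on chromosome 1 from 130731976 to 130744622, had 1.0, 1.86, 1.04 and 2.05 CPM in sham and 10.4, 10.6, 6.17 and 4.55 CPM in CLP+DCA. It rose by 2.39 ± 0.32 (FDR = 0.0282), and here replicate 4 and not replicate 3 was nearest to sham. CLP mice had 6.91 to 9.29 CPM of AA986860, within the span of the treated mice.

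Per1, a repressor of the circadian clock that is also induced directly by glucocorticoids and by cyclic AMP, lies on chromosome 11 from 69098949 to 69109957. Sham mice had 20.2, 32.7, 23.3 and 21.0 CPM and CLP+DCA mice 51.0, 57.6, 56.0 and 43.1 CPM. The groups did not overlap, replicate 3 was like the others, and Per1 rose by 1.09 ± 0.15 (FDR = 0.0357). Untreated CLP mice had 23.9 to 29.9 CPM, within the sham range and below every CLP+DCA mouse. Against CLP, Per1 in CLP+DCA was higher by 0.91 ± 0.15, which did not pass the FDR (0.109), and CLP against sham gave 0.19 with an FDR of 0.415. These 3 contrasts share mice and are not independent. Per1 was thus the gene past the FDR whose level in untreated CLP mice overlapped sham.

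Sc5d, the sterol-C5-desaturase of the late steps of cholesterol synthesis, lies on chromosome 9 from 42254177 to 42264300. It had 498, 450, 502 and 499 CPM in sham and 274, 209, 234 and 285 CPM in CLP+DCA. Every treated mouse was well below every sham mouse, and Sc5d fell by 0.96 on the log2 scale, with an SE of 0.13 (FDR = 0.0282). CLP mice had 254 to 328 CPM, overlapping the treated mice. Per1, Sc5d, Lrrc8a and AA986860 passed in 14 or 15 of 26 alternative settings of the test, and Saa3 in 24.

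**Figure D2:**
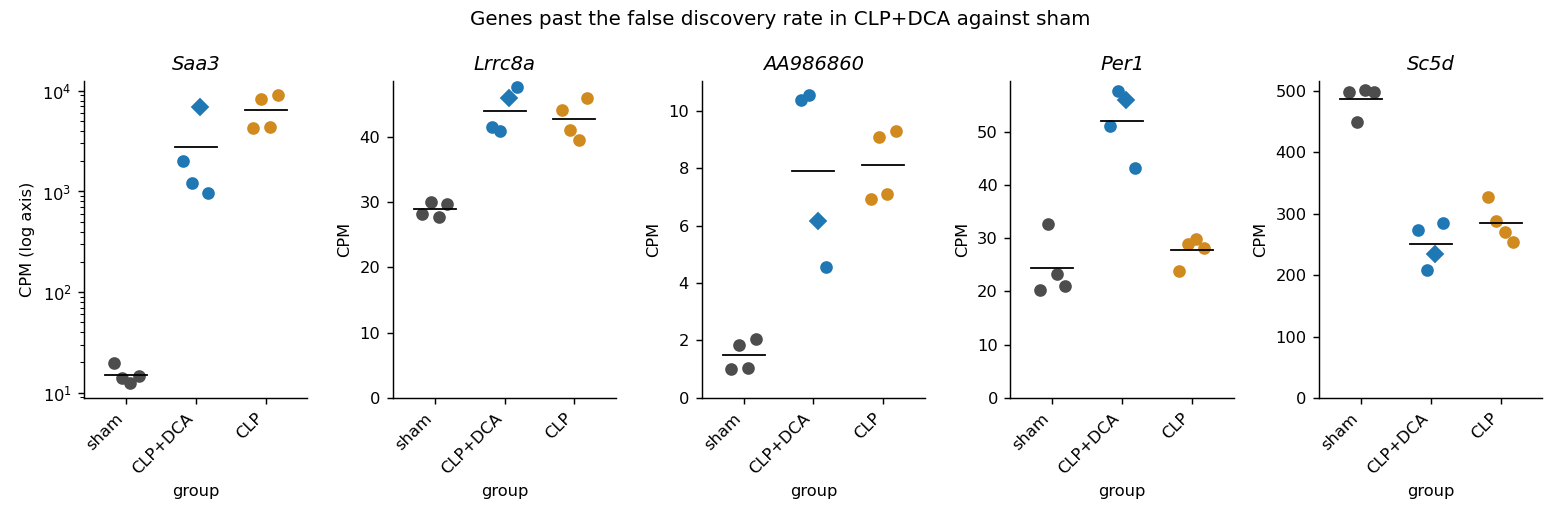
CPM of the 5 genes past the FDR in each mouse, grouped as sham, CLP+DCA and CLP, with the group mean as a line and CLP+DCA replicate 3 as a diamond. The Saa3 axis is logarithmic and the others start at 0. Only for Per1 do the CLP mice, at 23.9 to 29.9 CPM, lie within the sham range while the CLP+DCA mice, at 43.1 to 57.6 CPM, lie above it.

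Just outside the FDR stood Tmc7, Acat2 and Tmem41a, with FDR values of 0.0566, 0.0577 and 0.108. Acat2, the cytosolic acetoacetyl-CoA thiolase that starts the mevalonate pathway, had 59.3, 62.4, 68.3 and 58.9 CPM in sham and 44, 37.6, 39.5 and 40.4 CPM in CLP+DCA. The 4 treated mice were tightly grouped below sham, a difference of -0.62 ± 0.10, while CLP mice had 45.3 to 59.8 CPM. Tmc7, of the transmembrane channel-like family, had 5.77 to 7.0 CPM in sham and 11.7, 15.5, 19.4 and 11.9 CPM in CLP+DCA.

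Without replicate 3, 6 further genes passed: Reg3b, Reg3g, Tmc7, Tmem41a, Cdip1 and Id3. Reg3b and Reg3g encode C-type lectins of the REG3 family, which act against bacteria and are induced by STAT3. They are related genes, both on chromosome 6, and whether reads were shared between them was not tested. Reg3b had 0.06 to 0.33 CPM in sham and 22.9, 6.52, 489 and 6.52 CPM in CLP+DCA. Without replicate 3 it rose by 6.18 ± 0.75 (edgeR FDR = 0.0269). Reg3g had 0 to 0.19 CPM in sham and 19.8, 5.85, 616 and 4.68 CPM in CLP+DCA, and rose by 6.67 without replicate 3 (FDR = 0.0394). With all 4 mice the fold changes were larger, 9.63 and 10.68, and did not pass (FDR = 0.111 and 0.140), and the spread between the treated mice was wider. Id3, an inhibitor of helix-loop-helix transcription factors, had 106, 63.5, 70.9 and 74.1 CPM in sham and 32.2, 35.4 and 32.0 CPM in replicates 1, 2 and 4. Replicate 3, at 78.0 CPM, lay within the sham range. Id3 fell by 1.24 on the log2 scale without that mouse (FDR = 0.0269).

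Most differences were modest and fell short of the FDR, so the levels of all 4 mice were also set against sham without a test. Every CLP+DCA mouse lay above every sham mouse for 631 genes (4.78% of those tested) and below for 656 (4.97%). Scaling by library size alone gave 437 above and 770 below. The median size of the difference among these 1287 genes was 0.48 on the log2 scale, and 213 exceeded 1, of which 132 were higher and 81 lower. Replicate 3 was the mouse farthest from sham in 1004 of them and nearest to it in 81. Left out, it gave 897 genes above (6.8%) and 853 below (6.47%). At an unadjusted p under 0.05 there were 1074 genes higher (8.14%) and 640 lower (4.85%), which serve as the background for the gene lists below. For list members with no overlap the background is 4.78% above and 4.97% below, or 6.8% and 6.47% without replicate 3. The median over all genes tested was 0.014, and -0.046 with scaling by library size alone.

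Fold changes were ranked among genes with no overlap between groups and an unadjusted p under 0.05. A mean of at least 5 CPM in sham or CLP+DCA was also required. The largest upward belonged to A2m, Reg3g, Reg3b, Cd14, Saa3, Serpina3i, Cdkn1a, Chil1, E030018B13Rik and Igdcc4. Saa3 alone among them passed the FDR. Without replicate 3 the CLP+DCA mean was 4.33 CPM for Cd14, 0.37 for Serpina3i, 3.97 for Cdkn1a, 3.18 for Chil1, 2.23 for E030018B13Rik and 1.94 for Igdcc4. These genes thus met the rule through replicate 3. A2m, the acute phase protease inhibitor alpha-2-macroglobulin, had 0.25 to 0.38 CPM in sham and 18.5, 11.8, 3011 and 5.06 CPM in CLP+DCA. All 4 treated mice were above sham, but replicate 3 stood far above the rest and above the CLP mice, which had 191 to 2345 CPM. Its difference was 11.32 ± 2.51 with replicate 3 (FDR = 0.217) and 5.30 without it. Cd14, the lipopolysaccharide co-receptor, had 0.82 to 1.42 CPM in sham and 3.83, 7.16, 822 and 2.0 CPM in CLP+DCA, where replicate 3 exceeded the highest CLP mouse at 294 CPM. Cdkn1a, the cell cycle inhibitor p21, had 0.57 to 0.82 CPM in sham and 2.59, 8.17, 147 and 1.15 CPM in CLP+DCA. Chil1, a secreted chitinase-like protein, had 0.356 to 0.665 CPM in sham and 2.84, 3.56, 62.1 and 3.15 CPM in CLP+DCA. In each of these the 3 other treated mice were above sham by a smaller step than replicate 3. E030018B13Rik overlaps Klf13 on the opposite strand and the use of strand in counting is not stated, so its reads cannot be told from those of Klf13.

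The largest differences downward under the same rule belonged to Clec2h, Gsta2, 9130409I23Rik, Gm4956, Cyp3a59, D130043K22Rik, Abcd2, Scd1, Cyp3a25 and Nrep, and none passed the FDR. Scd1, the stearoyl-CoA desaturase that makes monounsaturated fatty acids, had 1525, 1663, 1758 and 3565 CPM in sham and 660, 580, 828 and 810 CPM in CLP+DCA. The 4 treated mice were alike, replicate 3 included, with a difference of -1.56 ± 0.47 (edgeR FDR = 0.273), and the CLP mice had 138 to 663 CPM, overlapping the treated mice at the upper end. Gsta2, a glutathione S-transferase of detoxification, had 4.24 to 13.0 CPM in sham and 1.98, 2.49, 0.05 and 2.16 CPM in CLP+DCA. Cyp3a25, a drug-metabolizing cytochrome P450, had 546 to 936 CPM in sham and 426, 328, 46.8 and 402 CPM in CLP+DCA. For Gsta2 and Cyp3a25 replicate 3 was lowest by a wide margin. Near-identical Cyp3a and Gsta family members may share reads.

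**Figure D3:**
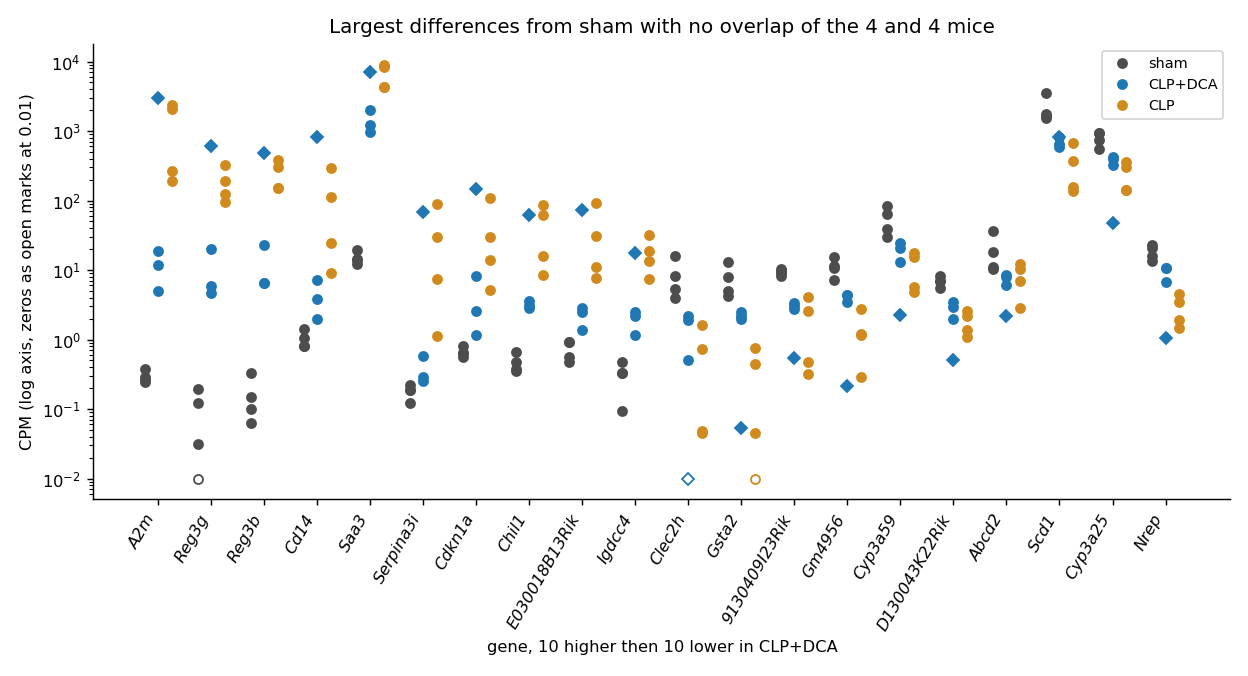
CPM in each mouse, on a log axis, for the 10 genes with the largest difference upward and the 10 with the largest difference downward in CLP+DCA against sham, among genes whose groups did not overlap. Points are single mice, CLP+DCA replicate 3 is a diamond, and open marks stand for 0 CPM. The diamond lies far from the other 3 CLP+DCA points in most genes, such as A2m at 3011 against 5.06 to 18.5 CPM. For Scd1 it is the highest of the 4 but close to the others, at 828 against 580 to 810 CPM.

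The acute phase list held 32 genes, all tested. Of these, 28 were higher at an unadjusted p under 0.05 and none lower, against backgrounds of 8.14% and 4.85%. In all 4 mice 25 lay above sham, against 4.78% of all genes. Only Saa3 passed the FDR. The median difference was 1.02, and 0.64 without replicate 3, beside 1.37 for CLP against the same sham mice. By mouse, the mean log2 level of the list relative to sham was 0.93, 1.28, 2.57 and 0.73 in replicates 1 to 4, with sham mice within -0.09 to 0.04 and CLP mice at 1.51 to 2.57. Replicates 1, 2 and 4 thus lay between the sham and the CLP mice, and replicate 3 at the top of the CLP range.

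Within the acute phase list the members differed in how far replicate 3 set the value. Serpina10, the protein Z-dependent protease inhibitor of coagulation, had 519 to 647 CPM in sham and 817, 1115, 974 and 828 CPM in CLP+DCA. Crp, C-reactive protein, had 428 to 563 CPM in sham and 803, 885, 886 and 672 CPM in CLP+DCA. Both were similar in the 4 treated mice. Lbp, the lipopolysaccharide-binding protein, had 175 to 236 CPM in sham and 340, 495, 546 and 287 CPM in CLP+DCA. Apcs, serum amyloid P, had 387 to 523 CPM in sham and 1253, 1546, 3266 and 798 CPM in CLP+DCA. Lcn2, the iron-siderophore binding lipocalin, had 424 to 478 CPM in sham and 1625, 1760, 9572 and 922 CPM in CLP+DCA, and CLP mice had 3479 to 13489 CPM. Replicate 3 was the highest of the treated mice for Lbp, Apcs and Lcn2, and replicate 4 the lowest. Il1rn, the interleukin 1 receptor antagonist, was set by replicate 3, with 318 CPM there, 3.38 to 5.75 CPM in the other 3 and 1.87 to 5.88 CPM in sham. Hamp, the iron hormone hepcidin, had 657 to 1160 CPM in sham and 493, 869, 1102 and 551 CPM in CLP+DCA, with overlapping groups. The Saa, Orm and Serpina3 families hold near-identical copies, so their single-member values are uncertain.

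Secreted antimicrobial proteins, 14 tested, had 10 higher and 1 lower at an unadjusted p under 0.05, against 8.14% and 4.85% of all genes. The median was 2.22, or 0.66 without replicate 3. Only 4 members were above sham in all 4 mice, Reg3b, Reg3g, Lcn2 and Chil1, against 4.78% of all genes. S100a8, a neutrophil alarmin, had 1.20 to 1.90 CPM in sham and 1.21, 4.5, 17.7 and 1.37 CPM in CLP+DCA. Neutrophil markers, as a sum, were highest in replicate 3, as the antimicrobial list was, but lay in the sham range in replicates 1 and 4. In those 2 mice the mean relative level of the antimicrobial list was 1.35 and 0.87, with sham at -0.19 to 0.34. The 19 markers, 15 of them tested, summed to 10.6 to 14.3 CPM in sham and to 51.2 to 74.2 CPM in CLP. In CLP+DCA the sum was 14.2, 23.1, 97.0 and 12.2 CPM. Of those tested, 9 were higher and 1 lower at an unadjusted p under 0.05. The lower one was Ly6g, with 24 to 30 reads in sham and 14, 16, 10 and 13 reads in CLP+DCA, lowest in replicate 3. The part of these cells in the result was not tested. Ngp, a neutrophil granule protein, had 0 reads in 3 of 4 sham mice and 310 reads in replicate 3.

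Regulators of the acute phase were higher in fewer genes. Of 21 genes of interleukin 6, STAT3 and C/EBP signaling, 9 were higher and 1 lower at an unadjusted p under 0.05. Over all genes the shares were 8.14% and 4.85%. The list median was 0.29, and 0.05 without replicate 3. Cebpd, the transcription factor C/EBP delta, had 3.45 to 7.38 CPM in sham and 10.8, 15.9, 27.0 and 10.5 CPM in CLP+DCA, above sham in every mouse. Pim3, a STAT3-induced kinase, had 69.3 to 90.6 CPM in sham and 133, 139, 130 and 101 CPM in CLP+DCA, with replicate 3 like the others. Of 25 NF-kappaB and Toll-like receptor genes tested, 12 were higher and 0 lower by edgeR at an unadjusted p under 0.05. In all mice 6 lay above sham, against 4.78% of all genes. The median was 0.43, or 0.23 without replicate 3. Chemokines and their receptors had 5 higher and 2 lower of 25. Cxcl13, a B-cell attractant, had 0.49 to 2.69 CPM in sham and 8.17, 13.7, 25.6 and 1.46 CPM in CLP+DCA, so that replicate 4 stayed in the sham range. Immediate early genes were set by replicate 3, with a mean relative level of 1.58 there and -0.05 to 0.01 in the other 3 mice.

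Glucocorticoid targets were, as a list mean, above sham in all 4 treated mice, with replicate 3 highest and replicate 4 lowest. Of 18 genes, 9 were higher and 0 lower by edgeR at an unadjusted p under 0.05, against 8.14% and 4.85% of all genes. In all 4 mice 8 were above sham and 1 below, against 4.78% and 4.97% of all genes. Without replicate 3, 11 were above and 1 below (6.8% and 6.47% of all genes). By sign alone, 14 had a difference above 0 and 4 below it. The mean relative level was 0.78, 0.92, 1.06 and 0.49 by mouse, against 0.50 to 1.08 in CLP. The median over members was 0.57, or 0.67 without replicate 3, beside 0.0036 for CLP against the same sham mice. In CLP the list mean was thus above sham while the middle member lay near it. Per1 was the member past the FDR. Fkbp5, a co-chaperone of the glucocorticoid receptor induced by its ligand, had 30.2, 34.3, 49.7 and 42.1 CPM in sham and 108, 116, 99.5 and 60.4 CPM in CLP+DCA. All treated mice were above sham, by 1.29 ± 0.22 (FDR = 0.108), and CLP mice were higher, at 136 to 195 CPM. Zbtb16, a zinc finger factor induced by glucocorticoids, had 8.41, 4.53, 17.3 and 16.8 CPM in sham and 54.1, 35.5, 32.5 and 37.9 CPM in CLP+DCA. Tat, tyrosine aminotransferase, had 1559 to 2063 CPM in sham and 3168, 2904, 2538 and 2427 CPM in CLP+DCA, while the CLP mice, at 1019 to 2404 CPM, overlapped sham. Dusp1, a phosphatase of MAP kinases, had 16.1 to 30.4 CPM in sham, 36.7, 55.6, 27.3 and 33.2 CPM in CLP+DCA and 8.08 to 12.7 CPM in CLP. Lcn2, Cdkn1a and Mt2 belong to this list and to others.

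Transcripts of fatty acid synthesis were lower as a list, and lipid synthesis itself was not measured in these data. Of 23 genes of fatty acid synthesis, desaturation and elongation, 12 were lower and 0 higher by edgeR at an unadjusted p under 0.05. Over all genes the shares were 4.85% and 8.14%. In all 4 mice 13 lay below sham, against 4.97% of all genes. No member passed the FDR. The median was -0.64, and -0.54 without replicate 3, beside -0.62 for CLP against the same sham mice. By mouse the relative level was -0.41, -0.70, -0.99 and -0.50, with sham at -0.09 to 0.07 and CLP at -0.82 to -0.57. Slc25a1, the mitochondrial citrate carrier that exports the carbon for lipogenesis, had 221, 244, 262 and 221 CPM in sham and 175, 174, 152 and 173 CPM in CLP+DCA. Fads3, a fatty acid desaturase family member, had 7.85 to 10.8 CPM in sham and 4.95, 5.01, 5.25 and 6.39 CPM in CLP+DCA. Elovl6, the elongase of palmitate, had 41.1 to 45.5 CPM in sham and 26.9, 23.8, 28.0 and 34.5 CPM in CLP+DCA. In these 3 genes the 4 treated mice were within a narrow band below sham. Fads1 and Fads2, the delta-5 and delta-6 desaturases of polyunsaturated fatty acids, had 418, 357, 152 and 396 CPM and 166, 107, 46.2 and 198 CPM in CLP+DCA, against 485 to 599 and 251 to 271 CPM in sham. Replicate 3 was lowest for both, and the differences were -0.69 ± 0.26 and -1.01 ± 0.34 (FDR = 0.319 and 0.296). Elovl2 had 537 to 695 CPM in sham and 467, 429, 145 and 583 CPM in CLP+DCA, and Elovl1 had 37.9 to 43.8 and 38.0 to 46.3 CPM. Elovl1 overlaps Cdc20 on the opposite strand.

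Cholesterol synthesis and uptake held Sc5d and showed a different order of the mice. Of 23 genes, 10 were lower and 1 higher at an unadjusted p under 0.05, against 4.85% and 8.14% of all genes. In all 4 mice 5 lay below sham (4.97% of all genes), or 10 without replicate 3 (6.47%). The relative level was -0.25, -0.82, -0.14 and -0.35 in replicates 1 to 4, so that replicate 2 was lowest and replicate 3 nearest to sham. CLP mice stood at -0.02 to 0.50 on this scale, above every CLP+DCA mouse. The median was -0.36 for CLP+DCA against sham, or -0.49 without replicate 3, and 0.45 for CLP against the same sham mice. Pmvk, phosphomevalonate kinase, had 44.3, 51.3, 53.5 and 43.3 CPM in sham and 26.3, 21.3, 32.8 and 28.2 CPM in CLP+DCA, against 29.8 to 48.9 CPM in CLP. Fdft1, squalene synthase, had 132, 144, 171 and 133 CPM in sham, 110, 82.0, 119 and 105 CPM in CLP+DCA and 163 to 226 CPM in CLP. For Fdft1 the treated mice lay below sham, and the CLP mice lay at the upper end of sham or above it. Srebf2, the transcription factor that drives the pathway, was 1 of 4 members with a difference above 0 (0.26), and had 55.9 to 62.1 CPM in sham, 70.0, 58.9, 78.6 and 71.0 CPM in CLP+DCA and 77.7 to 101 CPM in CLP.

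**Figure D4:**
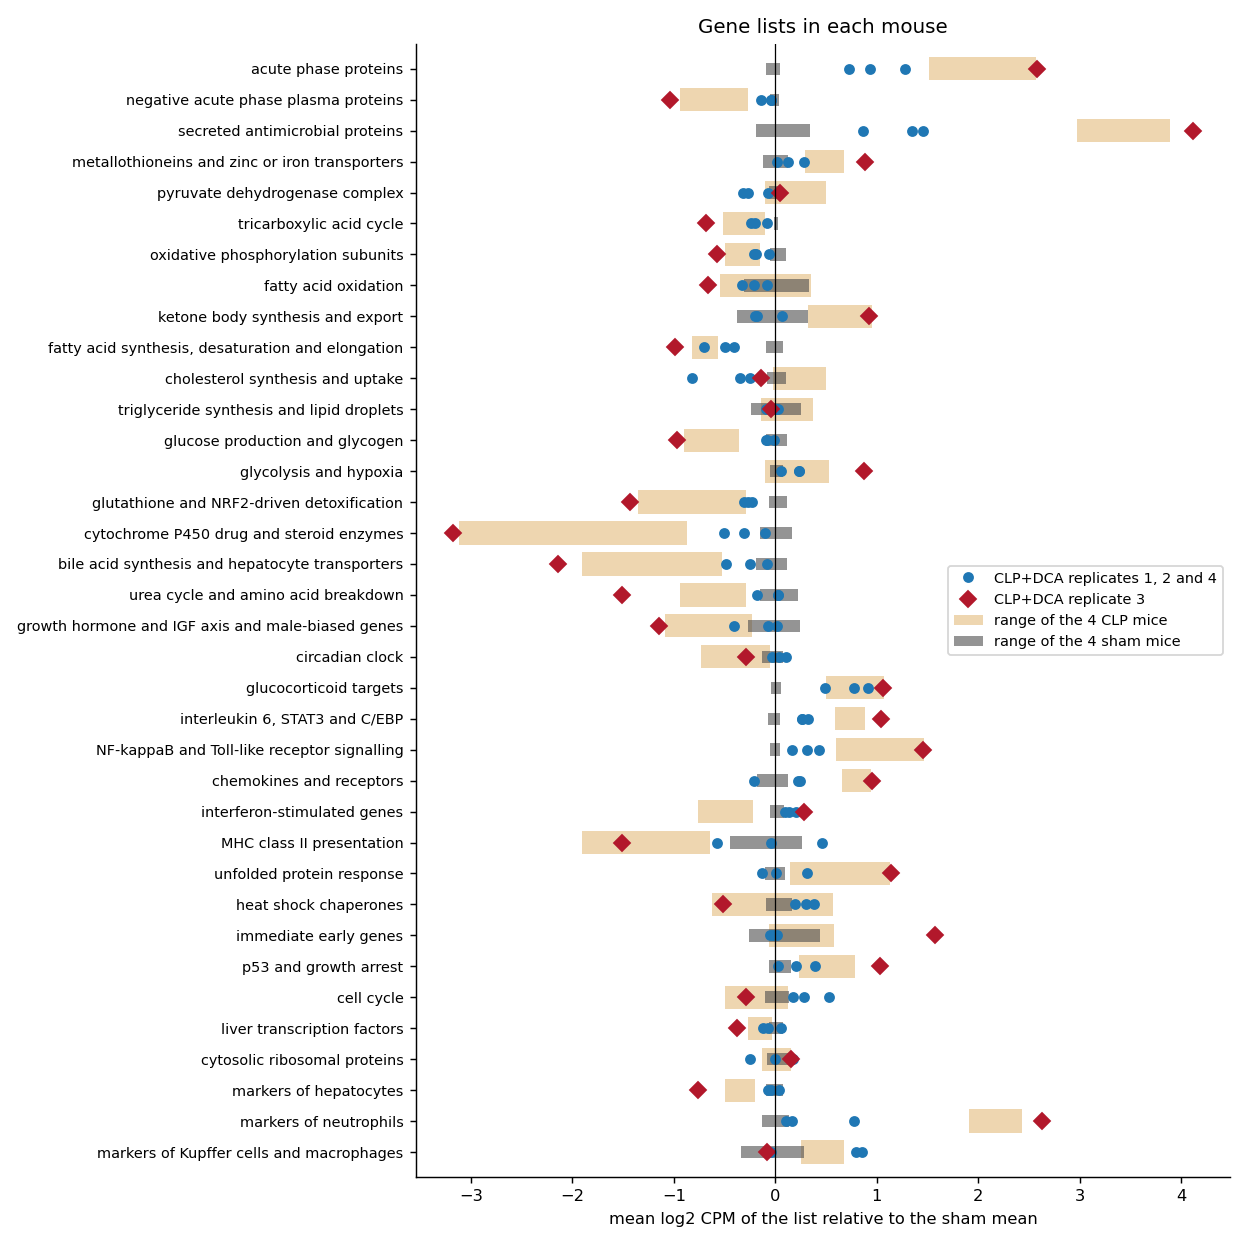
Mean log2 CPM of each gene list relative to the sham mean, for CLP+DCA replicates 1, 2 and 4 (circles) and replicate 3 (diamond), with the ranges of the 4 sham (dark bar) and 4 CLP mice (pale bar). Replicate 3 lies at or past the far end of the CLP range in many lists, such as cytochrome P450 at -3.18. For glucocorticoid targets the 4 treated mice all lie above sham, at 0.49 to 1.06. For interferon-stimulated genes they lie above 0 at 0.09 to 0.28 while the CLP mice lie below it.

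Transcripts of the drug's target did not pass the FDR by edgeR on all 12 mice. The list held 15 genes of the pyruvate dehydrogenase complex, its kinases, phosphatases and the pyruvate carriers. At an unadjusted p under 0.05, 1 was higher and 2 lower, with a median of -0.22. The shares of all genes were 8.14% and 4.85%, so that counts this small do not set the list apart. Pdk4, the kinase induced by fasting and fatty acids, had 2.57, 2.70, 2.82 and 3.01 CPM in sham and 2.17, 1.34, 10.3 and 1.46 CPM in CLP+DCA. Replicates 1, 2 and 4 were below every sham mouse and replicate 3 above, while CLP mice spread from 2.67 to 151 CPM. The Pdk4 difference from sham was 0.48 ± 1.08 (FDR = 0.847) with all mice and -0.74 without replicate 3, which passed with DESeq2 on the other 7 mice (FDR = 0.0365) and not with edgeR or with DESeq2 on 11 mice. Pdk1 had 37.8 to 74.6 CPM in sham and 37.4, 38.1, 37.6 and 43.0 CPM in CLP+DCA, a difference of -0.53 ± 0.22 (FDR = 0.354). Pdk2, a widely expressed kinase of the complex, had 90.0 to 95.6 CPM in sham and 86.3, 78.6, 41.8 and 96.9 CPM in CLP+DCA, with replicate 3 the lowest. Dlat, the acetyltransferase core of the complex, had 44.2, 42.7, 36.2 and 39.1 CPM in sham and 29.4, 26.4, 24.2 and 32.2 CPM in CLP+DCA. It was the member with no overlap between groups, by -0.53 ± 0.13 (edgeR FDR = 0.225). Dlat passed with DESeq2 on the 8 mice (FDR = 0.0145) and on all 12 (0.0222), and with limma voom and sample weights (0.0172). Those 3 fits passed 169, 243 and 496 genes, so that this does not set Dlat apart. Scd1, Pfkfb3, Fkbp5, Pmvk, Fads3, Slc25a1 and Foxo1 also passed with DESeq2 on the 8 mice and with voom. Pdha1 and Pdhb, the subunits of the E1 enzyme, differed by -0.16 ± 0.14 and -0.22 ± 0.13, and Dld by -0.16 ± 0.09. Pcx, pyruvate carboxylase, differed by 0.01 ± 0.14.

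Downstream of the complex, the tricarboxylic acid cycle had 7 of 20 genes lower and 0 higher by edgeR at an unadjusted p under 0.05. Over all genes the shares were 4.85% and 8.14%. In all 4 mice 9 members lay below sham, against 4.97% of all genes. The median was -0.33, and -0.21 without replicate 3. The relative level was -0.20, -0.24, -0.68 and -0.09 by mouse, with sham within -0.02 to 0.02. Mdh1, cytosolic malate dehydrogenase, had 502 to 549 CPM in sham and 382, 391, 280 and 437 CPM in CLP+DCA. Sdha, the catalytic subunit of succinate dehydrogenase, had 378 to 427 CPM in sham and 296, 286, 234 and 361 CPM in CLP+DCA. In both, replicate 4 was nearest to sham and replicate 3 farthest. Oxidative phosphorylation subunits, 75 tested, had 19 lower and 0 higher by the same measure, 27 below sham in all mice, and a median of -0.25 (-0.15 without replicate 3). Cox7b, a subunit of cytochrome c oxidase, had 109 to 130 CPM in sham and 94.0, 103, 75.5 and 90.5 CPM in CLP+DCA. Fatty acid oxidation had 5 of 42 lower and 0 higher, and a median of -0.15. Acsl5, an acyl-CoA synthetase, had 253 to 292 CPM in sham and 177, 162, 133 and 213 CPM in CLP+DCA. Ketone body genes, 7 in number, had 0 higher and 0 lower by edgeR at an unadjusted p under 0.05. Cytosolic ribosomal protein genes, 45 in number, also had 0 in either direction, with a median of 0.02 and a range of -0.19 to 0.23. None of the members of these lists passed the FDR by edgeR.

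In glucose metabolism, Pfkfb3 and Ddit4 were above sham in every treated mouse. Pfkfb3, which makes the activator of phosphofructokinase, had 7.66, 13.3, 11.1 and 6.87 CPM in sham and 35.2, 51.0, 76.3 and 20.4 CPM in CLP+DCA, a difference of 2.23 ± 0.44 (FDR = 0.146). Its CLP values were 12.5 to 36.5 CPM. Ddit4, an inhibitor of mTORC1 induced by stress and glucocorticoids, had 4.60 to 9.19 CPM in sham, 22.6, 34.1, 70.1 and 13.9 CPM in CLP+DCA and 7.93 to 33.7 CPM in CLP. The glycolysis and hypoxia list they belong to had 5 of 24 higher and 1 lower, with a median of 0.24 and 0.01 without replicate 3. Ugp2, which makes UDP-glucose for glycogen, had 198 to 230 CPM in sham and 142, 125, 88.6 and 167 CPM in CLP+DCA, and it overlaps Vps54 on the opposite strand. Foxo1, the insulin-restrained activator of glucose production, had 35.8 to 38.6 CPM in sham and 46.6, 49.8, 55.6 and 49.3 CPM in CLP+DCA, a tight and separate group, with a difference of 0.44 ± 0.12 (FDR = 0.245). Lpin1, a phosphatidate phosphatase and transcriptional coactivator, had 33.9 to 61.0 CPM in sham and 127, 153, 46.5 and 79.6 CPM in CLP+DCA. There replicate 3 lay within the sham range and the other 3 above it.

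Detoxification and bile acid genes set replicate 3 apart from the other treated mice by a wide step. Cytochrome P450 enzymes of drugs and steroids, 28 tested, had 3 lower and 0 higher by edgeR at an unadjusted p under 0.05. Over all genes the shares were 4.85% and 8.14%. The relative level of the P450 list was -0.31, -0.50, -3.18 and -0.10 by mouse, with sham at -0.15 to 0.17 and CLP at -3.12 to -0.87. Cyp3a11 had 1504 to 2851 CPM in sham and 730, 545, 41.1 and 844 CPM in CLP+DCA. Cyp2e1 had 5117 to 8014 CPM in sham and 6776, 7144, 943 and 7752 CPM in CLP+DCA, within the sham range in all but replicate 3. The list of bile acid synthesis and hepatocyte transporters stood at -0.25, -0.49, -2.14 and -0.08, and glutathione and NRF2-driven detoxification at -0.23, -0.31, -1.43 and -0.27. Gclc, the rate-limiting ligase of glutathione synthesis, had 218 to 257 CPM in sham and 134, 124, 178 and 179 CPM in CLP+DCA, below sham in all 4 mice with a difference of -0.59 ± 0.14 (FDR = 0.230). Nfe2l2, the NRF2 transcription factor, differed by -0.19 ± 0.14 (FDR = 0.539), and Keap1, its inhibitor, by 0.07 ± 0.09 (FDR = 0.714).

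The genes in which replicate 3 differed most from the mean of the other 3 treated mice are given as a description, since they were chosen for that. Among the 8 highest were Serpina3i, Cd14, A2m, Reg3g, Rtn4rl2, Ier3 and 3930402G23Rik. Ier3, an immediate early gene, had 52.4 CPM in replicate 3, 0.45 to 0.83 CPM in the other 3, and 0.57 to 0.82 CPM in sham. The 8 lowest were Cyp7a1, Hsd3b5, Selenbp2, Hsd3b3, Hsd3b2, Ces1f, Inmt and Ces1d. Cyp7a1, the rate-limiting enzyme of bile acid synthesis, had 178, 61.2, 1.27 and 117 CPM in CLP+DCA and 73.2 to 191 CPM in sham. Inmt, indolethylamine N-methyltransferase, had 189, 164, 3.11 and 202 CPM in CLP+DCA, 334 to 537 CPM in sham and 0.57 to 36.0 CPM in CLP. Ces1f, a carboxylesterase, had 189, 163, 3.20 and 224 CPM in CLP+DCA against 374 to 456 CPM in sham. For Inmt and Ces1f the 3 other treated mice lay below sham too, by a much smaller step. Igfbp1, a hepatocyte insulin-like growth factor binding protein, had 1105 CPM in replicate 3, 38.5 to 49.6 CPM in the others, 16.3 to 93.3 CPM in sham and 52.3 to 227 CPM in CLP.

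**Figure D5:**
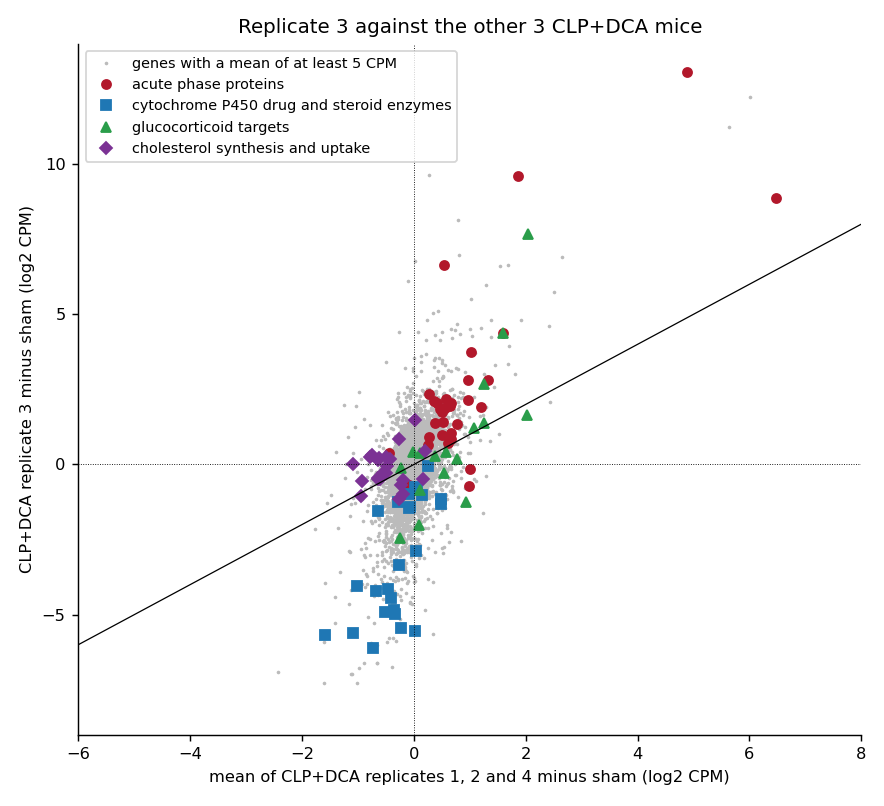
Log2 CPM relative to sham of genes with a mean of at least 5 CPM, in CLP+DCA replicate 3 (vertical axis) against the mean of replicates 1, 2 and 4 (horizontal axis), with the line of equality. Acute phase genes lie mostly to the right of 0 and above the line, with list means of 2.57 in replicate 3 and 0.73 to 1.28 in the others. Cytochrome P450 genes lie far below the line, and cholesterol genes lie mostly left of 0 with replicate 3 near it.

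Interferon-stimulated genes lay on opposite sides of sham in the CLP+DCA and the CLP mice, which were compared with the same sham mice. Of 35 genes, 6 were higher and 0 lower by edgeR at an unadjusted p under 0.05, beside a background of 8.14%, and none passed the FDR. The relative level was 0.21, 0.13, 0.28 and 0.09 by mouse, above the sham range of -0.05 to 0.08, and -0.77 to -0.22 in CLP. Oas1a, an activator of RNase L, had 1.82, 1.29, 1.27 and 1.34 CPM in sham, 2.71, 2.15, 4.06 and 2.26 CPM in CLP+DCA and 1.20 to 1.91 CPM in CLP. Irf7, a master regulator of interferon genes, had 25.8 to 31.8 CPM in sham, 36.6, 41.0, 43.2 and 30.7 CPM in CLP+DCA and 18.2 to 20.6 CPM in CLP. Replicate 4 overlapped sham for Irf7 and the CLP mice were below all others. The steps in CLP+DCA were small, with a median of 0.20, and 0.16 without replicate 3.

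Kupffer cell and macrophage markers varied among the treated mice in another way. The 18 markers summed to 601, 608, 307 and 323 CPM in CLP+DCA replicates 1 to 4, against 259 to 432 CPM in sham and 384 to 494 CPM in CLP. By this sum, replicates 1 and 2 were above both groups and replicates 3 and 4 in the sham range. Members moved apart in replicate 3, whose library was deeper than any sham library. Marco had 3210 reads there against 206 to 613 in sham. Clec4f had 1179 reads against 1797 to 2328, and Cd5l 1277 against 1922 to 2477. Of 17 tested, 2 were higher and 0 lower by edgeR at an unadjusted p under 0.05. Their part in the immune lists was not tested. Ctss, a macrophage cathepsin of antigen presentation, was above sham in replicates 1 to 3 and in the sham range in replicate 4, with 35.6, 33.0, 30.4 and 16.6 CPM in CLP+DCA and 15.3 to 22.2 CPM in sham. Acod1, the macrophage enzyme that makes itaconate, was too low to be tested, with 1 to 5 reads in the sham mice and 8, 5, 6 and 0 reads in CLP+DCA.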

How the data were processed

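Whole liver RNA from 12 male mice, 4 each of sham, CLP and CLP+DCA, was sequenced after poly(A) selection and library preparation with a TruSeq kit. Per the labels and the study's methods, the authors used STAR 2.5 to align reads to mm10 and featureCounts of Subread 1.5.0-p1 to assign them to genes, and deposited the raw counts. Whether counting used strand, and the gene annotation, are not given in the sources used here. The deposited counts were tested with edgeR 4.0.16 in R 4.3.3: genes were kept by filterByExpr (minimum count 10, by group), scaled by TMM and fitted with the robust quasi-likelihood model on all 12 mice, which share 1 estimate of the spread. The contrast was CLP+DCA minus sham, with Benjamini-Hochberg adjustment over 13190 genes at an FDR of 0.05. Standard errors are the log2 fold change divided by the root of F. Relative levels of lists are means of log2 CPM with a prior count of 2. Mice are taken as separate animals, and with 4 against 4 an exact permutation test of a single gene cannot go below 0.0286, two-sided.

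Named are the genes past the FDR, and the 10 largest rises and 10 largest falls among genes with no overlap and an unadjusted p under 0.05. These rises and falls needed a mean of at least 5 CPM in sham or CLP+DCA. Also named are the 8 highest and 8 lowest in CLP+DCA replicate 3 against the other 3. Up to 6 rises and 6 falls past the FDR without replicate 3 were added. So were the 2 genes of smallest p in each list, the genes of the pyruvate dehydrogenase list and a few the study names. Examples came from 44 gene lists, 11 of them marker lists. Of the table's 25611 genes, 6769 had no read in any mouse. Members and lists were chosen with earlier results of these data known. Of the genes these rules gave, 1 is not reported here. Acat2, Tmem41a and Cdip1 were named after their values were seen.

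Alternatives were edgeR on the 8 mice, DESeq2 1.42.0 (the tool the authors used), limma 3.58.1 voom with sample weights, other scalings, filters and FDR thresholds, a replicate block and leaving out each mouse. The fit was tested on simulated data. Promoter sequences are from RefSeq (GRCm38.p6), in which all 5 genes past the FDR were matched. The depth of 24436513 to 44266819 counted reads makes counting error small beside the spread between mice for all but the lowest genes.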

Additional observations from a re-analysis of the deposited data

Results flagged for a closer look

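In each group of 4 mice, the gap between the highest or lowest mouse and its nearest neighbor was divided by the range of the group, for 112 named genes and 44 lists in sham and CLP+DCA. The gap exceeded Dixon's 95% limit for 4 values in 41 of 312 groups. Chance gives about 1 such group in 20, and the genes are neither independent nor chosen at random, since some were named for the distance of replicate 3. CLP+DCA replicate 3 was the distant mouse in 31 of the 41.

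Replicate 3 was the distant mouse on the high side for Serpina3i (gap 0.870 of the range), Chil1 (0.928), Ier3 (0.878), 3930402G23Rik (0.843), Id3 (0.886) and Igfbp1 (0.925). The same held for Slc39a14, a zinc and iron transporter induced in inflammation (0.876), Xaf1, an interferon-stimulated gene (0.968), and Dnajb9, a chaperone of the endoplasmic reticulum (0.843). On the low side it was the distant mouse for Gsta2 (0.928), 9130409I23Rik (0.891), Gm4956 (0.913), Cyp3a25 (0.882), Hsd3b3 (0.877), Hsd3b2 (0.871), Ces1f (0.925), Inmt (0.951) and Ces1d (0.928). It was also lowest for Slc25a1 (0.927), where the whole range was narrow, Ccnd1, the G1 cyclin D1 (0.988), Fads1 (0.844) and Mpc1, a subunit of the mitochondrial pyruvate carrier (0.930). Xaf1 was 9.48 CPM in replicate 3 and 6.11 to 6.19 CPM in the other 3. Ccnd1 was 1.92 CPM in replicate 3 and 6.04 to 6.13 CPM in the others.

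Among list means, replicate 3 was distant on the low side for negative acute phase plasma proteins (0.892), glucose production and glycogen (0.914), glutathione and NRF2-driven detoxification (0.929), cytochrome P450 enzymes (0.868), urea cycle and amino acid breakdown (0.865) and hepatocyte markers (0.855). It was distant on the high side for interleukin 6, STAT3 and C/EBP genes (0.919), immediate early genes (0.958) and markers of stellate cells and fibroblasts (0.884).

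Replicate 4 was the distant CLP+DCA mouse for Pdk1 (0.862), at 43.0 CPM against 37.4 to 38.1 CPM. In sham, replicate 2 was distant for Sc5d (0.941), Slco1a4 (0.913), Pdha1 (0.830) and erythroid markers (0.895). Sham replicate 4 was distant for Scd1 (0.832), Gpx3 (0.856) and the list of p53 and growth arrest (0.922), sham replicate 1 for Oas1a (0.845) and sham replicate 3 for oxidative phosphorylation (0.835). Scd1 in sham replicate 4 was 3565 CPM, against 1525 to 1758 CPM in the other 3, and all 4 values were above every CLP+DCA mouse.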

How the results depend on the processing

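The count of 5 genes past the FDR stayed at 5 or 6 with RLE scaling, TMM without acute phase genes, no filter, a filter of 1 CPM and no robust estimation, was 7 at an FDR of 0.1, and included the same 5 genes each time. It was 3 with library size alone and 1 at an FDR of 0.01. It was 0 with edgeR on the 8 mice, 169 and 243 with DESeq2 on 8 and 12 mice, and 496 with limma voom and sample weights. Leaving out 1 mouse gave 1 to 11 genes by edgeR: 11 without CLP+DCA replicate 3 or 4, 9 without CLP replicate 2, 3 without sham replicate 2 or 4, 2 without sham or CLP replicate 3, and 1 without CLP+DCA replicate 1 or 2, sham replicate 1, or CLP replicate 1 or 4. The gene left in the last 5 was among the 5. Alternatives chosen after seeing the data left out CLP+DCA replicate 3 and gave 89 with edgeR on 7 mice, 544 with DESeq2 on 7 and 156 with DESeq2 on 11, each with all 5 genes. The causes of these differences were not tested. The count of genes with no overlap, 1287, was 1206 to 1390 under the scalings and filters and 1609 to 2704 with 1 mouse left out, the highest without CLP+DCA replicate 4, the mouse nearest to sham.

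With the replicate number as a block, 0 genes passed by edgeR and 1346 had an unadjusted p under 0.05. Deviations of same-numbered sham and CLP+DCA mice from their group means correlated at 0.094, 0.053, -0.095 and -0.160. Replicate 3 weighs on the CLP+DCA deviations, so these values cannot settle whether such mice share more than a number.

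Of the named genes' alternative values, 2584 kept direction and side of the threshold, 219 passed newly, 47 no longer passed and 48 changed sign. The sign changes were in genes near 0 or set by replicate 3. With voom they were Pdp1 (-0.0048), Fgf21 (-0.050), Elovl1 (-0.032), Keap1 (-0.034), Pdk4 (-0.48) and Pcx (-0.096). Elovl1 was -0.0024 and -0.0040 with DESeq2 on 8 and 12 mice, -0.0033 with RLE, -0.061 with library size and -0.0046 with no filter. Pcx was -0.054 with library size, and the block gave -0.036 for Selenbp2 and -0.31 for Pdk4. With 1 mouse left out of the 12 the values ran from -0.075 to 4.68 for Ier3, -0.74 to 0.46 for Selenbp2, -0.32 to 2.5 for Fgf21, -0.058 to 0.040 for Elovl1, -0.26 to 0.91 for Pdk3, -0.74 to 0.77 for Pdk4 and -0.034 to 0.087 for Pcx. The added fits without CLP+DCA replicate 3, by edgeR on 7 mice, DESeq2 on 7 and DESeq2 on 11, gave -0.071, -0.077 and -0.082 for Ier3, -0.33, -0.32 and -0.31 for Fgf21, -0.056, -0.060 and -0.062 for Elovl1, -0.26, -0.27 and -0.27 for Pdk3, -0.74, -0.74 and -0.74 for Pdk4, and -0.023, -0.027 and -0.028 for Pcx. For Keap1 the DESeq2 fits gave -0.0024 and -0.0038. List medians moved beyond the spread between mice in 4 of 132 alternatives. Depth limits what can be said of genes with a few reads, such as Acod1 and the sham values of Reg3g, by counting error.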

Other observations

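Lists not described above add the following, all against backgrounds of 8.14% higher and 4.85% lower at an unadjusted p under 0.05 by edgeR, and with no member past the FDR apart from Per1. Negative acute phase plasma proteins, 22 tested, had 0 higher and 1 lower, Alb (albumin), which had 39666 to 58481 CPM in sham and 29244, 27281, 15515 and 33314 CPM in CLP+DCA. Metallothioneins and metal transporters had 4 of 14 higher and 0 lower. Mt2, a zinc-binding metallothionein, had 158 to 492 CPM in sham and 643, 1200, 1958 and 499 CPM in CLP+DCA. Unfolded protein response genes had 4 of 28 higher and 0 lower, with a median of 0.30, or 0.04 without replicate 3. Chac1, a glutathione-degrading enzyme induced by that response, had 4.73 to 7.82 CPM in sham and 7.92, 12.3, 28.6 and 11.5 CPM in CLP+DCA. Urea cycle and amino acid breakdown had 4 of 42 higher and 2 lower. Csad, of taurine synthesis, had 347 to 548 CPM in sham and 288, 233, 305 and 257 CPM in CLP+DCA, while the CLP mice had 354 to 504 CPM, in the sham range.

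Heat shock chaperones had 2 of 18 higher and 0 lower at that threshold. In 7 of the 18, replicates 1, 2 and 4 lay above every sham mouse, against 6.8% of all genes. With replicate 3 included none did, since its mean relative level was -0.51 against 0.19 to 0.38 in the other 3. Genes of MHC class II presentation had 1 of 9 higher and 0 lower, and stood at 0.46, -0.05, -1.51 and -0.58 by mouse, against -1.91 to -0.64 in CLP. Cell cycle genes had 3 of 18 higher and 1 lower, and circadian clock genes other than Per1 had 0 higher and 1 lower, Nr1d1. Dbp, a clock output factor, had 68.2 to 79.8 CPM in sham and 46.7, 56.0, 3.44 and 68.1 CPM in CLP+DCA. Markers of B lymphocytes, 10 in the table and 4 tested, summed to 2.72 to 4.46 CPM in sham and 2.36, 2.62, 1.27 and 2.23 CPM in CLP+DCA, too low for a firm statement. Markers of cholangiocytes summed to 64.8, 81.4, 238 and 55.5 CPM in CLP+DCA, and those of stellate cells and fibroblasts to 163, 172, 372 and 157 CPM, with replicate 3 highest in both.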
